A study of Rattus norvegicus with 24 samples.

Results

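The aldehyde oxidases and xanthine dehydrogenase are a small family of related oxidising enzymes, and 5 of the 32883 genes in the count table carry their symbols: Aox1, Aox2, Aox3, Aox4 and Xdh. Each symbol matched 1 row. The genes were grouped by name after earlier results of these data had placed Aox2 among the genes with the lowest p in the thymus, so the difference between exposed and sham thymus is given for these genes as a description, with no test. The 24 libraries hold messenger RNA of Sprague-Dawley rats, an outbred laboratory strain, at 7 months of age, from 4 organs: liver, brain, thymus and spleen. Treated animals carry the label SAM-exposed and control animals the label Sham-exposed, while the title of the series speaks of exposure to PCB (polychlorinated biphenyls, persistent chlorinated industrial compounds). SAM is not spelled out in the labels, and no dose, route, duration or sex is given. Each tissue had 3 SAM and 3 Sham libraries. Exposed libraries came from numbers 1, 2 and 3 in liver and brain and from 1, 3 and 5 in thymus and spleen. Sham libraries came from numbers 13, 14 and 15 in liver, 13, 15 and 16 in brain, and 14, 15 and 17 in thymus and spleen. Values of single libraries are listed in this order. The labels do not say outright that libraries came from separate animals or that equal numbers mark 1 animal, so the p-values measure the spread between these libraries.

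All 5 enzymes use a molybdenum cofactor, iron-sulfur clusters and the flavin FAD, and work as paired identical subunits. Aldehyde oxidases convert aldehydes to carboxylic acids and hydroxylate nitrogen-containing ring compounds, among them many drugs, with hydrogen peroxide and superoxide as by-products. Xanthine dehydrogenase, the product of Xdh, turns hypoxanthine into xanthine and xanthine into uric acid, the last steps of purine breakdown before urate oxidase. The aldehyde oxidase genes arose from an Xdh-like ancestor by duplication and lie next to each other in rodents. In mouse, Aox1 and Aox3 are known as the liver enzymes, Aox4 is known from the Harderian gland and keratinised epithelia, and Aox2 from the nasal mucosa.

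In the RefSeq annotation of rat build GRCr8, the order along chromosome 9 was Aox1, Aox3, Aox4 and Aox2, followed by Bzw1, with only non-coding genes, pseudogenes and Rpl21l4 between them. Xdh lies on chromosome 6. The deposited counts were made on another build, rn6, so no position of the counted gene models is given here. The 250 bases before the annotated start of 3 genes of the cluster are printed because these genes lie close together and differed in where they were high. Aox1 and Aox3 were highest in liver and Aox2 in thymus. Sequences are from RefSeq (GRCr8, plus strand), 5′ to 3′, and capitals mark a GC box (GGGCGG, or CCGCCC for the opposite strand) or a CCAAT box (CCAAT, or ATTGG for the opposite strand).
Aox1, chr9:67073641-67073890: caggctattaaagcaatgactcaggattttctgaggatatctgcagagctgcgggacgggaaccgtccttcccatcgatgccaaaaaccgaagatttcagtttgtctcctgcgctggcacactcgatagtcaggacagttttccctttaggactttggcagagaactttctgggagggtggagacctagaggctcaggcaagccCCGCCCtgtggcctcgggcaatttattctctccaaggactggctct
Aox3, chr9:67158750-67158999: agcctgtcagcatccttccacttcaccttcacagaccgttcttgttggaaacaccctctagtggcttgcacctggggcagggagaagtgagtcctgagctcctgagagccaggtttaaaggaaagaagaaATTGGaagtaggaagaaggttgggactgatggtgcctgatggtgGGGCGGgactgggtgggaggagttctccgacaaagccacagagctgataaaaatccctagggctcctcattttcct
Aox2, chr9:67322348-67322597: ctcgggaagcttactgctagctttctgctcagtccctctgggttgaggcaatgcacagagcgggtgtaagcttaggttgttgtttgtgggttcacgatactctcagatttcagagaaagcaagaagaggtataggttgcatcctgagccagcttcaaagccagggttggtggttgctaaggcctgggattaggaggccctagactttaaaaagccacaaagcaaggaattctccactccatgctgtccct
A GC box lay 46 bases before the start of Aox1, on the opposite strand, and 76 bases before that of Aox3, which also held a CCAAT box 120 bases before its start on the opposite strand. Over both strands, 30.5% of 33469 rat promoters of the same length held a GC box and 34% a CCAAT box. The window of Aox2 held neither of these, nor TATAA, which 24% of promoters held. Not printed, the window of Aox4 held TATAA 20 bases before its start, and that of Xdh held a CCAAT box 78 bases before its start. These 3 motifs were added after the values had been seen. The 4 motifs searched first were absent as letters from all 5 windows: GCGTG, the core bound by the aryl hydrocarbon receptor (25.9% of promoters), TGACNNNGC, the core of the NRF2 element (10.1%), the motif of HNF1 (0.0448%) and CAAAGTCCA for HNF4 (0.338%), both HNF proteins being factors of hepatocytes. GC content was 52.8% in the windows of Aox1 and Aox3, 46% in that of Aox4, 50% in that of Aox2 and 50.8% in that of Xdh, against a median of 51.2% over all promoters.

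Library totals ran from 12.9 to 20.1 M counts, so that a count of 0 in 1 library allowed, in counts-per-million (CPM), a level of up to 0.149 to 0.233 CPM (3 counts of the total, counting error only). Marker genes fitted the labels of liver, brain and thymus. Alb was at 110000 to 140000 CPM in liver, Snap25 averaged 2270 CPM in SAM and 3330 in Sham brain, and Cd3e 762 and 711 in thymus. Libraries that stood apart were liver SAM 1, where mitochondrial genes took 18% of counts (5.77 to 8.18% in the rest of the liver set), and brain SAM 1 and SAM 2, with summed olfactory bulb markers of 930 and 896 CPM against 41 to 55.8 in the other 4. In thymus, SAM 1 and Sham 15 had mitochondrial shares of 5.74 and 8.3%, against 3 to 3.71% in the other 4, and the highest adipocyte markers. In bulk tissue, fewer cells of a type and less RNA per cell cannot be told apart.

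Levels are given as CPM scaled by TMM (a trimmed-mean scaling factor) within each tissue, and tissues were compared within the Sham libraries and again within the SAM libraries, in 1 edgeR quasi-likelihood fit per arm with TMM over its 12 libraries. Liver spends much of its RNA on a few secreted proteins, and its mean TMM factor in Sham was 0.44, against 1.2 in brain, 1.46 in thymus and 1.3 in spleen. With TMM the median of all 17204 genes tested differed by 0.01 log2 units between liver and brain, -0.21 between liver and thymus and -0.19 between liver and spleen; with library totals only, these medians were -1.37, -1.91 and -1.75. CPM levels set side by side across tissues therefore understate liver relative to the fitted differences, by more than 1 log2 unit. Most genes differ between tissues. In Sham, edgeR called 81.4% of genes between liver and brain, 77.3% between liver and thymus, 76.1% between liver and spleen, 82.5% between brain and thymus, 82.4% between brain and spleen and 62.3% between thymus and spleen, so a call alone says little about these 5 genes. In SAM the same pairs gave 76.3, 72, 70.8, 74.1, 73.5 and 47.6% of 17005 genes. Levels of different genes are not compared here, because no transcript lengths of the counted gene models were at hand; where list genes are named for the highest CPM, this served to choose them and takes no account of length.

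Aox1 (ENSRNOG00000015354), the broadly expressed aldehyde oxidase, was detected in every library and was highest in liver. In Sham liver it was at 947, 653 and 556 CPM and in SAM liver at 651, 771 and 666 CPM. The 6 brain libraries held 19.6 to 34.8 CPM, the 6 thymus libraries 6.44 to 24.5 CPM and the 6 spleen libraries 8.1 to 11 CPM. Every liver library thus exceeded every library of the other tissues, and brain and thymus overlapped, as did thymus and spleen. In the Sham fit, liver exceeded brain by 6.45 ± 0.37 log2 units (SE; edgeR adjusted p = 1.79e-09), thymus by 7.38 ± 0.39 and spleen by 7.91 ± 0.40. Brain exceeded spleen by 1.46 ± 0.32 (adjusted p = 0.000916). Brain exceeded thymus by 0.93 ± 0.31 (adjusted p = 0.0136). This call was lost without the libraries of Sham 14 (0.83, adjusted p = 0.077) and with library totals only (0.64, adjusted p = 0.0656). It was also lost with equal animal numbers taken as a block (0.45, edgeR adjusted p = 0.258). In the SAM libraries the difference was 1.51 ± 0.28 (adjusted p = 0.000411). Thymus and spleen were the neighbours that did not differ beyond their spread, at 0.53 ± 0.32 in Sham (adjusted p = 0.173, 95% interval -0.17 to 1.23) and 0.11 ± 0.28 in SAM (adjusted p = 0.784). Without the libraries of Sham 15 the Sham value was -0.06, and without Sham 17 it was 0.81 and passed (adjusted p = 0.0389). Alb, the defining marker of hepatocytes, reached at most 0.0555% of its liver mean in any library of the other tissues.

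Aox3 (ENSRNOG00000062125), known as a liver enzyme in mouse, was also highest in liver, but thymus came next and spleen was near the detection limit. Liver Sham libraries stood at 46.2, 82.8 and 128 CPM and liver SAM libraries at 45, 78.7 and 80.7 CPM. The thymus libraries held 3.05 to 12.4 CPM (60 to 201 counts), the brain libraries 0.363 to 2.33 CPM (6 to 43 counts) and the spleen libraries 0 to 5 counts. No library of 1 tissue overlapped the next in this order. Sham liver exceeded Sham thymus by 5.31 ± 0.44 log2 units (edgeR adjusted p = 1.14e-07) and Sham brain by 8.23 ± 0.56, and thymus exceeded brain, whose difference was -2.92 ± 0.62 (adjusted p = 0.000625). Within spleen, Aox3 did not pass the count filter. It entered the fits between tissues through those where it was higher, so its differences from spleen are given with no test. Thymus minus spleen was 5.49 ± 0.88 in Sham. Brain minus spleen was 2.57 ± 1.32 in Sham and 3.33 ± 0.76 in SAM.

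Aox2 (ENSRNOG00000033923) was high in thymus, low in liver and at or near 0 in brain and spleen. Thymus libraries held 486 to 1459 counts each (30.7 to 73.8 CPM), liver libraries 18 to 90 counts, and brain and spleen libraries 0 to 2 counts, with 3 of 6 at 0 in each. Thymus was the one tissue in which the gene was above 10 CPM. The thymus libraries had played a part in the choice of this gene, so its differences from thymus are given with no test. In Sham, liver lay below thymus by a difference of -3.70 ± 0.24 log2 units (SE). Liver stood at 1.33, 1.3 and 1.63 CPM and thymus at 73.8, 65.4 and 54.9 CPM. In SAM the difference was -1.74 ± 0.58. It was -0.97 without the libraries of SAM 3, -1.34 without SAM 2 and -3.15 without SAM 1, the high liver library. Aox2 did not pass the count filter within brain or spleen, where the 3 Sham libraries together held 2 counts and 1 count, and no fold or test against these tissues is given. Among the 16775 genes compared over all 24 libraries, the profiles nearest to Aox2 were S100g, Elf3, LOC685716, Epcam and Serpinb5, at root mean square differences of 0.82 to 1.31 log2 units after centring, against a median of 3.65 over all genes. S100g encodes a calcium-binding protein, Elf3 an epithelial transcription factor, Epcam an epithelial adhesion molecule and Serpinb5 the epithelial serpin maspin.

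Aox4 (ENSRNOG00000014555), the oxidase of keratinised epithelium and Harderian gland in mouse, was near the detection limit outside thymus, apart from single spleen libraries. The 6 thymus libraries held 9 to 59 counts, the brain libraries 1 to 3 and the liver libraries 0 or 1. In spleen, SAM 1 held 52 counts (2.97 CPM) and Sham 14 held 17 (1.12 CPM), while the other 4 libraries held 0 or 1. Those 2 spleen libraries therefore carried nearly all of the gene's spleen counts. Aox4 passed the count filter within thymus and in no other single tissue. It entered the fits between tissues through thymus, and those differences are given with no test. Sham brain minus thymus was -3.10 ± 0.94 log2 units (SE) and SAM brain minus thymus -2.23 ± 1.43. Thymus minus spleen was 2.13 ± 0.84 in Sham and -0.58 ± 1.05 in SAM. The Sham value was 0.78 without the libraries of Sham 15 and 7.87 without those of Sham 14, so single libraries set its size.

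Xdh (ENSRNOG00000007081) was at 10 CPM or more in every library, with spleen and liver high and brain low. Spleen libraries held 188, 137 and 148 CPM in Sham and 176, 194 and 157 in SAM. Liver held 87.7, 102 and 104 CPM in Sham and 66.1, 105 and 121 in SAM. Thymus libraries ranged from 45.5 to 60.6 CPM and brain libraries from 10.8 to 16 CPM, so the tissues did not overlap in CPM. Spleen exceeded thymus (thymus minus spleen -1.67 ± 0.14 log2 units, edgeR adjusted p = 3.42e-07) and thymus exceeded brain (brain minus thymus -1.78 ± 0.15, adjusted p = 8.69e-08). The order of liver and spleen turned with the scaling. With TMM, Sham liver exceeded spleen by 0.96 ± 0.14 (adjusted p = 2.32e-05) and SAM liver by 0.53 ± 0.21 (adjusted p = 0.0383), while with library totals only the differences were -0.60 (adjusted p = 0.000281) and -0.87 (adjusted p = 0.00744), against medians over all genes of -1.75 and -1.86. The SAM call with TMM was lost without the libraries of SAM 2 (adjusted p = 0.12) or SAM 5 (adjusted p = 0.159). It was also lost with equal animal numbers taken as a block. Among the nearest profiles to Xdh were Plin2, a lipid droplet protein, B2m, the light chain of MHC class I, Irgm, an interferon-inducible GTPase, and Rab43, at 0.37 to 0.41 log2 units (median over all genes 1.98).

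**Figure D1:**
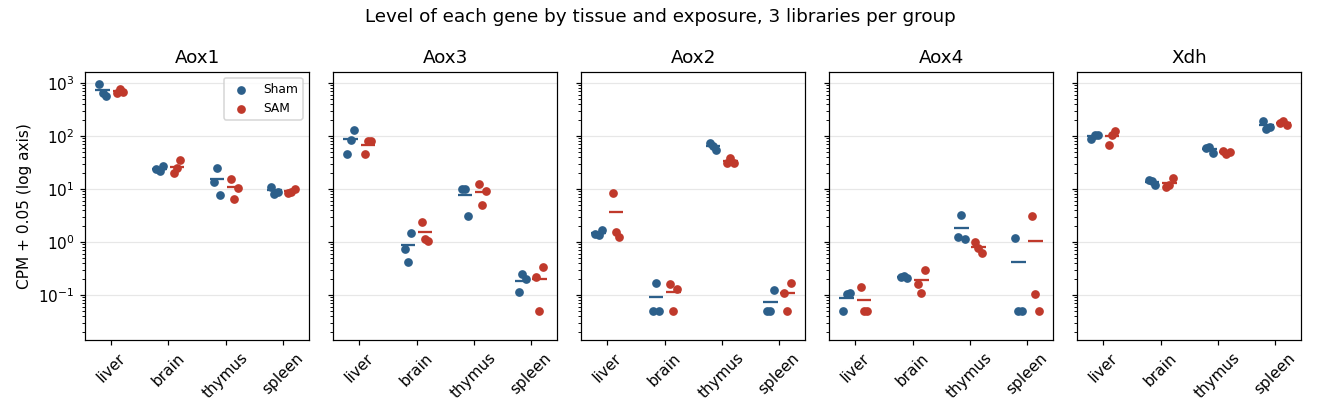
Level of each gene in counts-per-million (log axis, with 0.05 added so that 0 can be drawn) in liver, brain, thymus and spleen; points are libraries, 3 per group, and bars are group means. Aox1 and Aox3 are highest in liver and Aox2 in thymus (30.7 to 73.8 CPM), while Xdh is high in spleen and liver.

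The profiles nearest to Aox1 were those of Pxmp2, a peroxisomal membrane protein, Depdc7, Rida, Fah, the last enzyme of tyrosine breakdown, and Rmdn2, at 0.43 to 0.55 log2 units (median over all genes 3.43). Those of Aox3 were Cldn3, a tight junction protein, Abcc2, the canalicular export pump of hepatocytes, Enpep, an aminopeptidase, Chdh, choline dehydrogenase, and RGD1305347, at 0.76 to 1.05 (median 3.87). For Aox4, whose counts are low, the nearest genes were AABR07017768.2, Tubb6, AABR07005838.1, AC135696.1 and Fgf23, at 0.98 to 1.03 against a median of 1.69. These distances describe likeness over tissues and libraries that share depth and source.

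Which paralog a tissue favours was read from the log2 ratio of counts of a gene pair in the same library, compared across tissues so that gene length cancels (0.5 added to each count). The ratio of Aox3 to Aox1 was -4.36 to -2.12 in the 6 liver libraries, -5.79 to -3.05 in brain, -8.33 to -4.97 in spleen and -1.33 to -0.19 in thymus. Thymus libraries thus held more Aox3 relative to Aox1 than any library of another tissue. The ratio of Aox2 to Aox1 was 1.01 to 2.83 in thymus and -10.03 to -6.11 in the other 3 tissues. The ratio of Xdh to Aox1 went from liver (-3.43 to -2.41) through brain (-1.19 to -0.61) and thymus (1.30 to 2.81) to spleen (3.98 to 4.50), with no overlap between tissues. The ratio of Aox4 to Aox1 was -4.12 to -2.83 in thymus, -8.43 to -1.50 in spleen, -8.09 to -6.68 in brain and -14.9 to -12.21 in liver. Ratios on few counts rest largely on the added 0.5 and the Aox1 count. This holds for Aox2 in brain and spleen (0 to 2 counts) and Aox3 in spleen (0 to 5). It also holds for Aox4 in liver (0 or 1), brain (1 to 3) and most spleen libraries. Relative to Aox1, Aox2 and Aox3 were thus highest in thymus and Xdh in spleen, while Aox4 overlapped between thymus and spleen. These ranges are descriptions over 6 libraries a tissue.

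**Figure D2:**
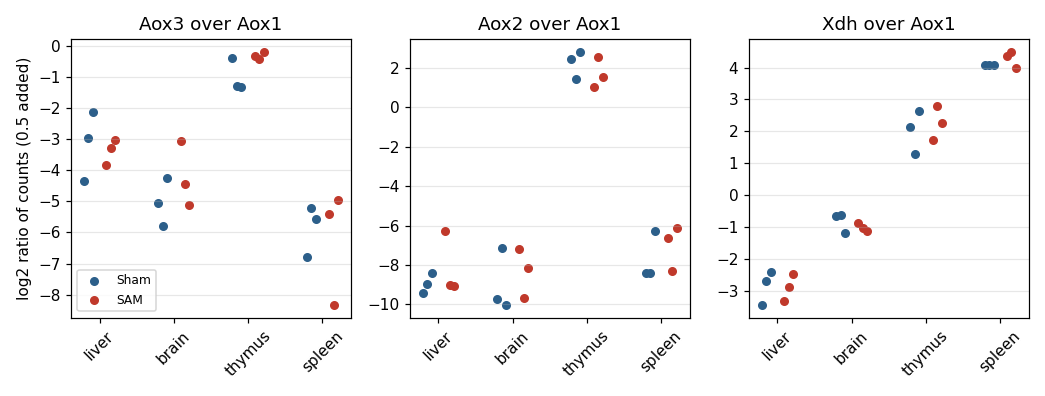
Log2 ratio of counts of Aox3, Aox2 and Xdh to Aox1 in each library, by tissue and exposure, with 0.5 added to each count. Thymus lies highest for Aox3 (-1.33 to -0.19) and Aox2 (1.01 to 2.83), and spleen for Xdh (3.98 to 4.50).

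The comparison of SAM with Sham asked whether each tissue's oxidases differed between SAM and Sham animals. Of the 20 combinations of gene and tissue, 14 passed the filter on low counts (liver 4, brain 3, thymus 5, spleen 2). In liver, brain and spleen, 0 members passed the test. Over all genes, edgeR also called 0 (0%) of 12130 liver, 15126 brain, 15036 thymus and 14530 spleen genes. At an unadjusted p under 0.05 there were 327, 3108, 922 and 597, and DESeq2 called 2, 513, 102 and 7. None of the member values in liver, brain or spleen separated the groups, while 10.8, 23.8 and 9.22% of all genes did in those tissues.

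In liver, Aox1 averaged 696 ± 65.2 CPM in SAM and 719 ± 204 in Sham (SD, n = 3 each). SAM minus Sham was -0.05 ± 0.22 log2 units (SE; edgeR adjusted p = 0.952), with a 95% interval of -0.56 to 0.47. The groups overlapped, and the highest and lowest libraries, Sham 13 and Sham 15, were both sham. Aox3 averaged 68.1 ± 20.0 against 85.6 ± 40.9 CPM (-0.33 ± 0.38, adjusted p = 0.818; interval -1.21 to 0.55) and Xdh 97.4 ± 28.3 against 98.2 ± 9.12 CPM (-0.01 ± 0.23, adjusted p = 0.991; interval -0.55 to 0.53). For both Aox3 and Xdh, SAM 1 was the lowest library of the tissue. Aox2 went the other way in that library: it stood at 8.22 CPM (90 counts) in SAM 1, 1.46 and 1.2 CPM in the other SAM libraries and 1.30 to 1.63 CPM in Sham. Its log2 fold change of 1.31 ± 0.73 (adjusted p = 0.802) was -0.08 without SAM 1, the library with 18% mitochondrial counts. Of the 10 thymic epithelium markers, 7 were at 0 in each of SAM 1, SAM 3, Sham 13 and Sham 15. SAM 2 had 3 at 0 and Sham 14 had 6. The 10 markers summed to 339 CPM in SAM 1 and 158 to 205 CPM in the other 5 liver libraries, with Krt5 at 0 in all 6. Most of that sum was Krt8, a keratin that hepatocytes also express, at 237 ± 80.6 CPM in SAM and 171 ± 23.1 in Sham liver. The genes nearest to Aox2 had been found with these same libraries, SAM 1 included, and LOC685716 is not given by library. How many of all genes were highest in SAM 1 was not counted. Of the other nearest genes, SAM 1 was highest for S100g (1.92 against 0.675 to 1.09 CPM) and Epcam (9.5 against 6.22 to 7.9 CPM). It was also highest for Serpinb5 (4 counts against 0 or 1), but not for Elf3 (1.37 against 1.01 to 2.26 CPM). The part of RNA quality or of epithelial cells in these values was not tested. For reference, Cyp1a1, the standard target of the aryl hydrocarbon receptor, was at 30.3, 5.64 and 11.4 CPM in SAM, against 1.77, 1.71 and 3.68 CPM in Sham liver (log2 fold change 2.71 ± 0.64, adjusted p = 0.802).

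In brain, Aox1 stood at 19.6, 24.2 and 34.8 CPM in SAM, against 23.3, 21.7 and 27.0 CPM in Sham (0.12 ± 0.21, edgeR adjusted p = 0.745; interval -0.39 to 0.64). Both ends of that range were SAM libraries. Xdh stood at 10.8, 11.9 and 16 CPM in SAM, against 14.9, 14.2 and 11.8 CPM in Sham (-0.08 ± 0.18, adjusted p = 0.799; interval -0.51 to 0.35). Aox3 was at 2.33, 1.07 and 0.971 CPM in SAM, against 0.669, 0.363 and 1.39 CPM in Sham, on 6 to 43 counts (0.85 ± 0.56, adjusted p = 0.38; interval -0.47 to 2.18). SAM 1, the highest for Aox3, and SAM 2 are the libraries with high olfactory bulb markers. With both left out, SAM 3 stood alone against Sham, assumed to vary as Sham does, and the values were 0.54 for Aox1, 0.24 for Aox3 and 0.24 for Xdh (adjusted p = 0.509, 0.973 and 0.823). With SAM 3 left out in turn, so that SAM 1 and SAM 2 stood for the exposed group, edgeR called 5896 genes over the tissue, but Aox1 (-0.14, adjusted p = 0.448), Aox3 (1.05, adjusted p = 0.158) and Xdh (-0.27, adjusted p = 0.163) did not pass.

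In spleen, Xdh averaged 175 ± 18.4 CPM in SAM and 157 ± 26.7 in Sham (0.16 ± 0.13, edgeR adjusted p = 0.967; interval -0.14 to 0.45), and Aox1 8.97 ± 0.845 against 9.29 ± 1.53 CPM (-0.05 ± 0.16, adjusted p = 0.989; interval -0.41 to 0.31). For both genes the groups overlapped. Aox2, Aox3 and Aox4 did not pass the count filter there. The spread of the exposure difference over liver, brain and spleen was tested as an interaction over 18 libraries, in which edgeR called 0 (0%) of 17083 genes (1428, or 8.36%, at an unadjusted p under 0.05). Adjusted p was 0.985 for Aox1 and 0.889 for Xdh. Aox3, which did not pass the count filter within spleen, is given no test here.

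**Figure D3:**
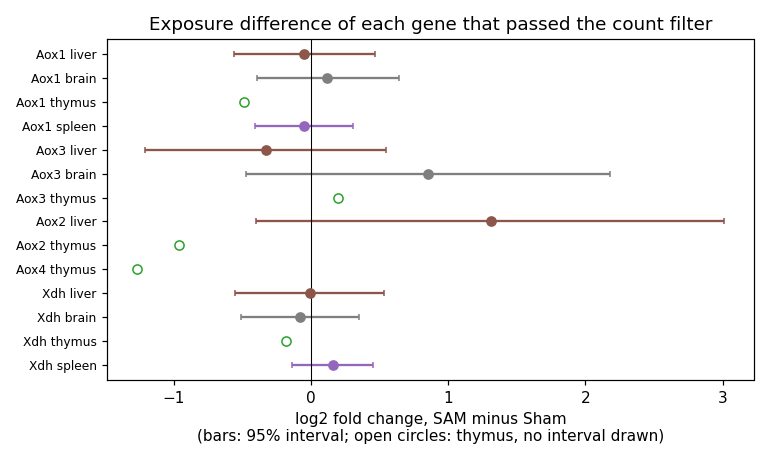
Log2 fold change, SAM minus Sham, of each gene and tissue that passed the count filter; bars are 95% intervals and open circles are thymus values, drawn with no interval. In liver, brain and spleen every interval includes 0, and the lowest values are Aox4 (-1.27) and Aox2 (-0.96) in thymus.

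The thymus values are those that led to the choice of these genes. Aox2 stood at 31.3, 37.5 and 30.7 CPM in SAM, against 73.8, 65.4 and 54.9 CPM in Sham. All 3 SAM libraries lay below all 3 Sham libraries, with means of 33.2 ± 3.78 and 64.7 ± 9.44 CPM (SD, n = 3 each). The difference was -0.96 ± 0.13 log2 units (SE), or 1.95-fold. It ranged from -1.07 to -0.86 with each library left out. Aox4 also did not overlap, at 0.924, 0.729 and 0.569 CPM in SAM, against 1.16, 3.17 and 1.07 CPM in Sham, on 9 to 59 counts (-1.27 ± 0.49). That value was -0.59 without Sham 15, so Sham 15 decided its size. Groups did not overlap for 11.9% of all thymus genes, with SAM lower for 6.96%. The other 3 members overlapped. Xdh stood at 51.8, 45.5 and 50.5 CPM in SAM, against 59.0, 60.6 and 47.8 CPM in Sham (-0.18 ± 0.10). Aox1 stood at 15.5, 6.44 and 10.4 CPM in SAM, against 13.4, 24.5 and 7.72 CPM in Sham (-0.49 ± 0.45, and 0.03 without Sham 15). Aox3 stood at 12.4, 4.82 and 9.16 CPM in SAM, against 10, 9.84 and 3.05 CPM in Sham (0.20 ± 0.48, but -0.13 without SAM 1 and -0.18 without Sham 17). For Aox1 and Aox3, SAM 3 and Sham 17 were the lowest libraries of their groups.

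Markers of cell types are given beside the thymus values, and no association with them was computed. Thymic epithelium markers, which mark the stroma that supports developing T cells, summed to 995, 1190 and 1130 CPM in SAM, against 1670, 1680 and 1550 CPM in Sham, with none of the 10 markers at 0 in any library. All 10 had a negative log2 fold change, and the median was -0.47, against 0 over all genes. Of the 10, 7 lay below every Sham library, as did 6.96% of all thymus genes. None was called, but neither was any of the 15036 thymus genes. The list was chosen with earlier results of these data known. The defining keratins were Krt5, at 310, 366 and 307 CPM in SAM, against 618, 625 and 573 CPM in Sham, and Krt14, at 80.5, 88.7 and 98.4 CPM in SAM, against 157, 146 and 152 CPM in Sham. The genes nearest to Aox2 had been found with these same libraries. Among them S100g stood at 39.7, 14 and 3.98 CPM in SAM, against 76.8, 71.4 and 51.4 CPM in Sham. Epcam, also one of the 10 epithelium markers, stood at 34.7, 39.5 and 55.2 CPM in SAM, against 61.2, 71.6 and 60.8 CPM in Sham, and Serpinb5 at 18.1, 26.1 and 26.4 CPM in SAM, against 31.6, 29.8 and 27.6 CPM in Sham. These 3 did not overlap, whereas Elf3 did, at 5.73, 7.62 and 11.7 CPM in SAM, against 14.7, 16.8 and 8.58 CPM in Sham. Keratinised and glandular epithelium markers, none of them shared with that list, summed to 118 to 160 CPM in SAM and 204 to 209 in Sham, and thymocyte markers to 7890 to 8960 CPM in SAM and 7430 to 8330 in Sham. Adipocyte markers summed to 602, 96.7 and 155 CPM in SAM, against 132, 881 and 27.3 CPM in Sham, none at 0, with Adipoq at 116, 23.4 and 41.1 CPM in SAM, against 29.6, 154 and 2.69 CPM in Sham. SAM 1 and Sham 15 were the highest for these markers and for Aox1, and Sham 15 also for Aox4. Alb stood at 67.5 CPM in Sham 15 and 30.2 CPM in SAM 1, against 0.457 to 5.06 CPM in the other 4. With SAM 1 and Sham 15 left out together, a choice made after seeing the data, the log2 fold changes were -0.91 for Aox2, -0.77 for Aox4, -0.33 for Aox1, 0.09 for Aox3 and -0.16 for Xdh. The part of epithelial or fat cell content in the oxidase values was not tested.

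**Figure D4:**
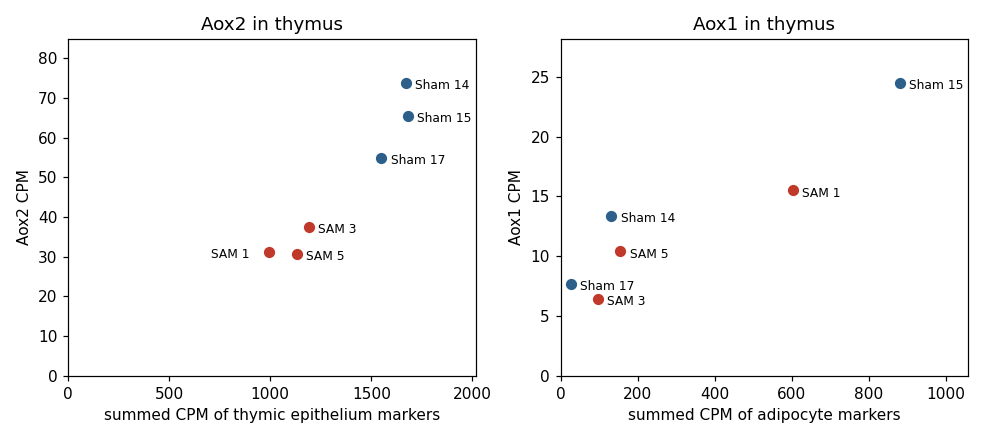
Left, Aox2 against the summed level of 10 thymic epithelium markers in the 6 thymus libraries, both in CPM; right, Aox1 against the summed level of 6 adipocyte markers. The 3 SAM libraries lie lower on both axes of the left panel (Aox2 30.7 to 37.5 against 54.9 to 73.8 CPM), and Sham 15 and SAM 1 lie farthest right in the right panel.

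The genes that supply these enzymes with their cofactor were higher in liver with TMM. All 6 molybdenum cofactor genes tested (Mocs1, Mocs2, Mocs3, Gphn, Mocos and Nfs1) passed as higher in Sham liver than in brain, thymus and spleen, with median differences of 2.62, 3.05 and 2.50 log2 units against 0.01, -0.21 and -0.19 over all genes, of which 41.3, 36.1 and 34.9% were higher in liver. In SAM, 6, 5 and 5 of the 6 passed as higher with TMM. With library totals only in Sham, 4, 5 and 4 of the 6 were higher and 2, 1 and 1 lower. Between thymus and spleen, 0 of the 6 were higher in thymus and 3 lower (30.7% of all genes were lower). Mocos, the sulfurase that activates aldehyde oxidases and xanthine dehydrogenase, averaged 17.2 ± 1.96 CPM in Sham liver, 10 ± 1.3 in spleen, 5.76 ± 0.521 in thymus and 2.59 ± 0.659 in brain. Sulfite oxidase (Suox), another molybdenum enzyme, averaged 115 ± 11.4 CPM in liver and 9.89 to 23.1 CPM in the other tissues.

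Of 11 purine breakdown genes tested in Sham, 8 were higher and 2 lower in liver than in brain, 8 and 3 than in thymus, and 6 and 3 than in spleen; with library totals only these splits were 4 and 5, 5 and 5, and 4 and 7. Of all genes, 81.4, 77.3 and 76.1% were called in these pairs, so the number called is near the background. Ada, adenosine deaminase, averaged 208 ± 24.7 CPM in Sham thymus, 36.4 ± 2.87 in spleen, 2.21 ± 0.0302 in liver and 1.54 ± 1.09 in brain. Pnp, the phosphorylase that yields hypoxanthine and guanine, was highest in spleen by CPM (310 ± 21.0, against 96.2 to 152 in the other tissues), while with TMM liver exceeded spleen by 0.62 log2 units (edgeR adjusted p = 0.000178). Uox, urate oxidase, which removes the product of Xdh in rats, averaged 935 ± 134 CPM in liver and at most 0.341 CPM elsewhere, and Urad, which acts just after it, averaged 99.2 ± 17.2 CPM in liver and 0.0697 CPM or less elsewhere. Of the urate transporters, Slc2a9 averaged 37.1 CPM in liver, 20.9 in spleen, 20.6 in thymus and 0.57 in brain. Hprt1, the salvage enzyme that competes with Xdh for hypoxanthine and that cells in general use, was listed at 0 or near 0 in every group (0.0181 CPM at most), which leaves Aprt and Adk in the salvage list. Nnmt, which makes the N-methylnicotinamide that aldehyde oxidases turn into pyridones, averaged 43.3 ± 5.99 CPM in liver and 0.499 to 1.37 CPM elsewhere.

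Under exposure, 0 genes of the 11 pathway lists were called in any tissue. Different list genes tested numbered 61 (liver), 59 (brain), 58 (thymus) and 56 (spleen). At an unadjusted p under 0.05 there were 3, 10, 4 and 3 of them, or 4.92, 16.9, 6.9 and 5.36%, against 2.7, 20.5, 6.13 and 4.11% of all genes. The groups did not overlap for 9.84, 11.9, 12.1 and 8.93% of them, against 10.8, 23.8, 11.9 and 9.22% of all genes, so these shares were near or below the background. In liver, Aldh1a7, an aldehyde dehydrogenase, averaged 102 ± 25.0 CPM in SAM and 2.27 ± 1.44 in Sham (5.50 ± 0.48, edgeR adjusted p = 0.0518), the lowest adjusted p of any list gene. The closely similar Aldh1a1 stood at 176, 218 and 157 CPM in SAM, against 201, 128 and 157 CPM in Sham liver. Sharing of reads between them was not tested. The list genes with the highest CPM there, not per length, were Cat, catalase, at 3090 ± 172 against 3110 ± 87.5 CPM (-0.01 ± 0.15), and Cyp1a2 at 2360 ± 940 against 1620 ± 376 CPM (0.54 ± 0.31). Mocos stood at 23.7 ± 3.42 CPM in SAM and 17.2 ± 1.96 in Sham liver without overlap (0.46 ± 0.18, adjusted p = 0.802), and was chosen after its values were seen.

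In brain the list genes with the lowest p were Cyp1b1, a target of the aryl hydrocarbon receptor (7.22 ± 0.806 against 3.12 ± 0.789 CPM, 1.2 ± 0.22, edgeR adjusted p = 0.221), and Ampd2, an AMP deaminase (205 ± 116 against 67.7 ± 9.24 CPM, 1.60 ± 0.47). Summed purine breakdown genes stood at 591 and 596 CPM in brain SAM 1 and SAM 2, the libraries with high olfactory bulb markers, and at 411 CPM in SAM 3, against 360 to 402 CPM in Sham; the part of those markers' tissue in the difference was not tested. Those named for the highest CPM were Prdx2 (0.16 ± 0.12) and Sod2, mitochondrial superoxide dismutase (-0.33 ± 0.12). In thymus, Aldh1a1, which makes retinoic acid from retinal as aldehyde oxidases also can, averaged 20.3 ± 1.83 CPM in SAM and 63.0 ± 32.2 in Sham without overlap (-1.63 ± 0.32, adjusted p = 0.368). Aldh1a2, another retinal dehydrogenase, stood at 7.49 ± 1.29 against 4.94 ± 0.117 CPM (0.60 ± 0.17, adjusted p = 0.568), and Slc7a11 and Prdx1, named for the highest CPM, at 0.06 ± 0.07 and -0.03 ± 0.10. In spleen, catalase averaged 254 ± 17.2 against 207 ± 17.3 CPM (0.30 ± 0.08, adjusted p = 0.967) and Slc7a11, the cystine importer, 27.0 ± 4.03 against 35.1 ± 5.31 CPM (-0.38 ± 0.15). Hmox1, haem oxygenase (0.01 ± 0.20), and Gpx1, glutathione peroxidase (0.10 ± 0.13), were those named for the highest CPM.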

How the data were processed

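Messenger RNA of 24 rat tissue libraries was prepared with RNeasy columns and a stranded TruSeq kit, per the labels' protocols. STAR 2.2.1 and build rn6 are named in the submitters' processing notes. Counter, strand setting and annotation were not given in the sources used here. Reads of similar paralogs or overlapping genes may therefore be uncertain. Raw counts per gene, as whole numbers, make up the single table the authors deposited. Every column name begins with SAM, and columns were matched by tissue and animal number. Totals per library were 12.9 to 20.1 M counts. Chi-square per degree of freedom between replicates was 5.95 to 193, far above sampling noise.

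Counts were analysed with edgeR 4.0.16 in R 4.3.3 (filterByExpr, TMM, quasi-likelihood test, two-sided, Benjamini-Hochberg over all genes tested at 0.05): SAM minus Sham within each tissue, tissue by exposure over liver, brain and spleen, and tissue pairs within each arm. CPM are TMM-scaled within a tissue. The scripts were tested on simulated counts. DESeq2 1.42.0, other scalings, no filter, a replicate block and omission of each library were tried.

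The members and gene lists were chosen with earlier results of these data known. The naming rule took all 5 members, per tissue the 2 pathway-list genes with the highest CPM and the 2 with the lowest p where none was called, the first markers of each cell type, and the 5 genes with the most similar centred log2 CPM profile (prior count 2) for each member. Cyp1a1 in liver and Krt5 in thymus were fixed as reference genes. The other pathway genes whose tissue levels are given were chosen after their values were seen. Levels per length had been planned, but no transcript lengths of the counted gene models were at hand, so genes were compared through ratios across tissues. Protein sequences were not used here. Promoters came from RefSeq (GRCr8). A marker of spleen and 1 of the nearest profiles are not reported here.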

Additional observations from a re-analysis of the deposited data

How the results depend on the processing

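No gene was called between SAM and Sham in any tissue with the settings of the report, and the counts moved with the tool. In liver edgeR called 1 gene with RLE scaling, 1 with no low-count filter and 0 to 1 with each library left out (1 without SAM 1), and DESeq2 called 2. In brain DESeq2 called 513 and edgeR 1 with SAM 1 and SAM 2 left out together; with each library left out it called 0 to 5896, the highest without SAM 3. In thymus DESeq2 called 102 and edgeR 3 with no filter. In spleen DESeq2 called 7, and edgeR 0 to 1 with each library left out (1 without SAM 5 or Sham 17). Member log2 fold changes turned direction without single libraries, none past the threshold in liver, brain and spleen: liver Aox1 (-0.20 to 0.20), Aox2 (-0.08 to 1.73), Aox3 (-0.63 to 0.08) and Xdh (-0.19 to 0.21), brain Aox1 (-0.14 to 0.30) and Xdh (-0.27 to 0.03, and 0.24 without SAM 1 and SAM 2), and spleen Aox1 (-0.14 to 0.09). In thymus, with no test, Aox1 ranged from -0.85 to 0.03 and Aox3 from -0.18 to 0.50. Between tissues, Aox4 in Sham ranged from -2.61 to 3.45 (liver minus spleen) and -1.72 to 4.53 (brain minus spleen), positive without Sham 14, Aox1 thymus minus spleen from -0.06 to 0.81 in Sham and -0.27 to 0.33 in SAM, and Xdh liver minus spleen to -0.60 in Sham and -0.87 in SAM with library totals only. The 12 tissue-pair counts stayed within 1.5 times their values under every alternative. Of the alternative values of members between tissues, 7 turned direction, and the cause was not tested. Those that kept, lost or gained the threshold are not counted here, because that tally mixed in gene and tissue pairs given with no test.

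Equal animal numbers were checked for pairing. Over 25 same-number pairs of tissues, correlations of deviations were -0.01 to 0.27, with 9 over the threshold of 0.1. With 3 libraries per group to match against, 18 of 25 correlated best with their own number. That is more than an even spread over the 3 would give, so the low correlations do not show that animals were separate. The main fits used no block and treated libraries as independent. Calls that were lost with the block therefore depend on that choice. With a replicate block the interaction called 0 genes, Aox1 brain minus thymus in Sham was 0.45 (adjusted p = 0.258), Aox4 thymus minus spleen in SAM turned to 0.31 and Xdh liver minus spleen in SAM was 0.45 (adjusted p = 0.105). Aox4 differences between tissues are described with no test, so no test of them with the block is given. Levels per length and their coding-length alternative were not run. Depth limits Aox2 in brain and spleen, Aox3 in spleen and Aox4 in liver and brain, where libraries held 0 to 5 counts.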
